A study of Ovis aries with 16 samples.

Results

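Among the 28524 genes of the table, 9 markers of lymphocytes and plasma cells were followed in the fat of adult ewes. They are PTPRC, TBC1D10C, CD3E, CD2, CD5, CD79B, MS4A1, JCHAIN and LTB, and they were chosen by name as genes that lymphocytes or antibody-secreting cells are known for, with earlier results of these data known. Lymphocytes reach adipose tissue from blood and lymph. T cells and B cells each read antigen through a receptor whose signal is passed on by invariant chains, and a B cell that turns into a plasma cell gives up much of its surface apparatus and secretes antibody. In human and mouse fat, lymphocytes form a small part of the cells, lie between the fat cells and in lymphoid clusters, and shift in number with obesity. The roles named here come from human and mouse, since the files give no function.

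The fat came from female sheep aged 21 months. Their mothers had been injected daily from day 30 to day 90 of a pregnancy of 147 days with either bisphenol A (BPA), a plastics chemical with oestrogen-like activity, at 0.5 mg/kg/day in corn oil, or with corn oil alone. Visceral fat was mesenteric fat next to the rumen and subcutaneous fat was sternal, and every ewe had her cycle synchronized with prostaglandin and was sampled 24 hours after the last injection. There were 4 libraries in each of 4 groups, visceral BPA, visceral control, subcutaneous BPA and subcutaneous control. Libraries are called by the number in their title, which was read as the animal's number. The 16 libraries carry 11 numbers, and 3 control numbers (902, 924 and 928) and 2 BPA numbers (918 and 977) occur in both depots. All ewes, controls included, were kept on a diet that limits obesity. RNA came from whole frozen tissue, so that fewer lymphocytes and less RNA per lymphocyte cannot be told apart in any value here. Only the mothers were dosed, and whether ewes of a group shared a mother is not known here. The spread between libraries of a group holds that between animals together with that of sampling and sequencing.

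Library totals ran from 6.77 to 14.3 M counts in visceral BPA, from 11 to 13.1 in visceral controls, from 3.05 to 4.83 in subcutaneous BPA and from 4.74 to 6.22 in subcutaneous controls. Levels are given as CPM, the counts per M counts of a library, scaled over all 16 libraries with the trimmed mean of M values (TMM). Adipose tissue was checked by the fat cell hormone ADIPOQ (adiponectin), which stood at 8824.3 ± 2088.8 CPM in visceral BPA, 10717.5 ± 2311.8 in visceral controls, 5643.9 ± 2227.8 in subcutaneous BPA and 5560.9 ± 1584.8 in subcutaneous controls (SD, n = 4 each).

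All 9 genes are protein coding. Positions are as deposited, and the genome build behind them is not given in the sources used here. Chromosome numbers were assigned because genes with the same symbols as others on the same deposited sequence lie on that chromosome in RefSeq's ARS-UI_Ramb_v3.0. PTPRC is on chromosome 12 at 81039776 to 81169311 on the plus strand, with 32 exon blocks, and CD2 on chromosome 1 at 99000100 to 99014851 on the plus strand, with 5. CD3E and MS4A1 share chromosome 15 but not a neighbourhood, at 31827379 to 31837998 and at 89578583 to 89593658, both on the plus strand. CD5 and TBC1D10C share chromosome 21, at 38461405 to 38483537 and at 47053882 to 47059611, both on the plus strand. JCHAIN is on chromosome 6 at 95290364 to 95300063 on the minus strand, CD79B on chromosome 11 at 14830720 to 14836851 on the plus strand and LTB on chromosome 20 at 29547677 to 29550624 on the plus strand. None of the 9 shares exon bases with another gene of the table, although exons of LOC114117417 lie within the span of PTPRC.

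Per kilobase of exon, JCHAIN and PTPRC stood far above the other 7 genes. JCHAIN encodes the joining chain that links IgM and IgA units in plasma cells, and PTPRC encodes CD45, the phosphatase on the surface of nearly all white blood cells. Averaged over the 16 libraries, JCHAIN had 26 and PTPRC 17.5 CPM per kilobase. The next were CD3E at 2.83, TBC1D10C at 2.32 and CD2 at 2.13, then CD5 at 1.3 and LTB at 1.22, and last the B cell genes MS4A1 at 0.284 and CD79B at 0.218. The order of the leading pair differed by depot. PTPRC was ahead in visceral BPA (18.3 ± 9.0 CPM per kilobase against 11.7 ± 9.72 for JCHAIN) and in visceral controls (14.9 ± 2.15 against 8.93 ± 2.34). JCHAIN was ahead in subcutaneous BPA (16.8 ± 13.5 against 11.6 ± 4.03 for PTPRC) and in subcutaneous controls (66.6 ± 58.1 against 25.2 ± 12.9; SD, n = 4 throughout). In each of these groups but visceral controls the difference between both genes was smaller than the larger of their SDs. These SDs are between libraries, and both genes were read in the same ones. Library by library, JCHAIN over PTPRC was 0.427 to 0.824 in visceral BPA and 0.421 to 0.732 in visceral controls, below 1 throughout. The ratio was 1.3 to 4.8 in subcutaneous controls, above 1 throughout, and 0.699 to 2.04 in subcutaneous BPA.

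The B cell genes were near the limit of detection. MS4A1 had between 0 and 15 counts per library and CD79B between 0 and 21, while JCHAIN had 32 to 1164 and PTPRC 183 to 1246. Of CD2, 0 counts were found in subcutaneous BPA 922, which allows up to 0.678 CPM at 3 counts, and of MS4A1 0 counts were found in visceral BPA 984 (up to 0.226 CPM), visceral control 902 (up to 0.268) and subcutaneous BPA 922 (up to 0.678). CD79B had 0 counts in visceral BPA 977 (up to 0.45 CPM). These limits cover counting error only.

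A few libraries carried most of the high values. Subcutaneous controls 902 and 924 and visceral BPA 977 each held the highest level of 3 of the 9 genes among all 16 libraries, which leaves none for the other 13. Summed over the 9 genes, subcutaneous controls 902 and 924 had 364 and 358 CPM and subcutaneous controls 928 and 931 had 107 and 125 CPM. Visceral BPA 977 had 242 CPM, against 85.1 to 114 CPM in the other visceral BPA libraries. For that reason many of the fitted values that these libraries move are also given without them. The libraries left out were picked for their high levels of these same genes. Leaving them out therefore lowers the summed level of their group by the way they were picked. Such values show how far these libraries carry a difference, and are no separate test of it. These libraries were also low in fat cell markers within their groups. The summed level of 12 adipocyte genes was 18957.9 CPM in visceral BPA 977, against 28497 to 30185.9 CPM in the other 3 visceral BPA libraries. It was 13866.8 CPM in subcutaneous control 924, the lowest of all 16, and 20749.3 CPM in 902, against 28127.7 and 22435 CPM in subcutaneous controls 928 and 931. In mesothelial and epithelial genes (8 in the list) visceral BPA 977 stood further apart, with a sum of 183 CPM, against 25.6 to 48.6 CPM in the other visceral BPA libraries and 39.3 to 79 CPM in visceral controls. The part of tissue make-up in the results was not tested.

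**Figure D1:**
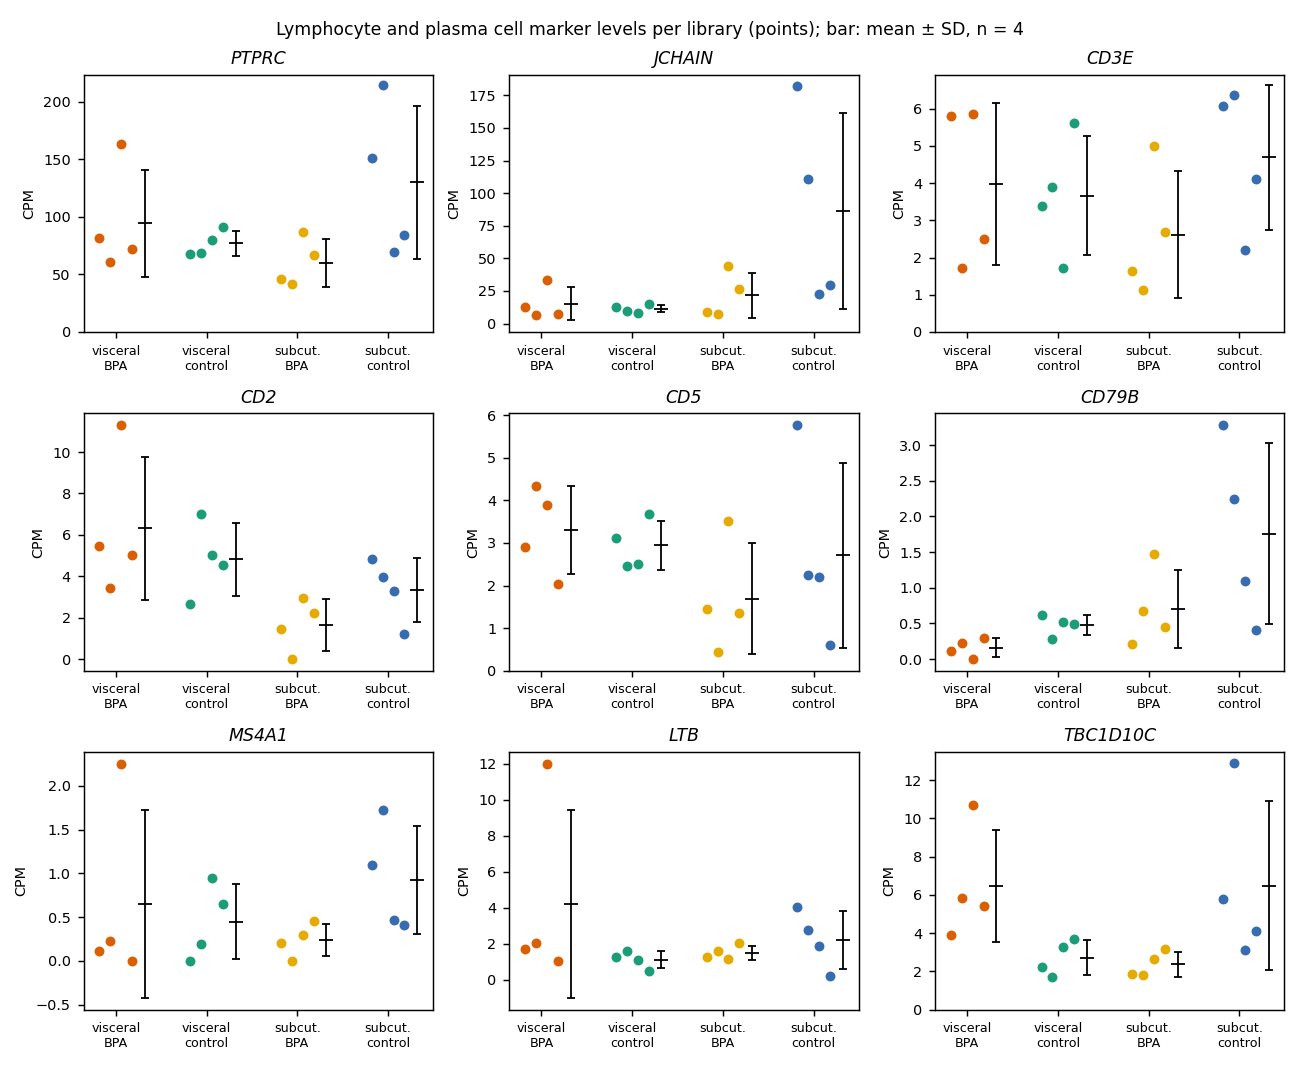
Level of each of the 9 genes in CPM (vertical axis, linear) in the 4 libraries of each group (points), with the group mean ± SD beside them. Subcutaneous controls 902 and 924 and visceral BPA 977 hold the highest point of every panel, for example 182 CPM of JCHAIN in subcutaneous control 902 and 12.0 CPM of LTB in visceral BPA 977.

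The comparison of BPA with control ewes in subcutaneous fat asks whether exposure before birth left a mark on lymphocyte genes in the adult depot. The levels of the pan-leukocyte gene PTPRC, of JCHAIN and of TBC1D10C averaged lower in BPA ewes, by 2.16-fold to 4.01-fold, but no gene of the 9 passed the test over all genes. Of 13535 genes tested, 96 (0.709%) were called at an adjusted p under 0.05 by edgeR's quasi-likelihood test with Benjamini-Hochberg adjustment, 82 higher and 14 lower. Of the 9 genes, 6 passed the filter on low counts and 0 were called, by edgeR or by DESeq2, which called 464 (3.43%) of all genes, with 3 at an unadjusted p under 0.05, as were 1926 (14.2%) of all genes tested. Estimates were below 0 for these 6, and their median was -1.08 on the log2 scale, against -0.01 over all genes tested, of which 50.8% had lower estimates. The median of the 6 was -0.32 without controls 902 and 924, which were left out for their high levels of these genes.

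PTPRC had 45.8, 41.4, 86.6 and 66.8 CPM in subcutaneous BPA libraries 918, 922, 941 and 977, against 151, 215, 69.7 and 84.4 CPM in subcutaneous controls 902, 924, 928 and 931. The BPA libraries except 941 lay below every control, and 941 lay above controls 928 and 931, so the groups overlapped. The fitted log2 fold change was -1.11 ± 0.36 (SE, n = 4 against 4; edgeR adjusted p = 0.208). TBC1D10C, which encodes an inhibitor of Ras and calcineurin signalling in mouse lymphocytes, had 1.86, 1.81, 2.64 and 3.15 CPM in BPA libraries 918, 922, 941 and 977, against 5.77, 12.9, 3.14 and 4.1 CPM in controls 902, 924, 928 and 931. Here 3 of 4 BPA libraries lay below every control and BPA 977 lay just above control 928. Its log2 fold change was -1.45 ± 0.48 (edgeR adjusted p = 0.214).

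JCHAIN had 8.87, 7.23, 44.3 and 26.5 CPM in subcutaneous BPA libraries 918, 922, 941 and 977, against 182, 111, 22.8 and 29.5 CPM in subcutaneous controls 902, 924, 928 and 931. Both groups spread widely, with a ratio of highest to lowest of 6.13 in BPA and of 7.98 in controls, and BPA 941 was above controls 928 and 931. The log2 fold change was -2.0 ± 0.72 (edgeR adjusted p = 0.251). Without controls 902 and 924 the value was -0.28 for JCHAIN (adjusted p = 0.891), -0.35 for PTPRC (0.662) and -0.60 for TBC1D10C (0.633), in edgeR fits that leave 2 controls and in which 0 of all genes were called. Other settings also gave larger differences. Over 14 alternatives JCHAIN ran from -2.60 to -0.28 and PTPRC from -1.34 to -0.35. TBC1D10C ran from -1.69 to -0.60 over 13.

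The T cell genes CD3E, CD2 and CD5 had lower means in BPA ewes and overlapping groups. CD3E encodes a signalling chain of the T cell receptor complex, and its level was 1.65, 1.13, 4.99 and 2.7 CPM in BPA libraries 918, 922, 941 and 977, against 6.08, 6.38, 2.2 and 4.1 CPM in controls 902, 924, 928 and 931. The log2 fold change was -0.87 ± 0.50 (edgeR adjusted p = 0.464). CD2, an adhesion molecule of T cells and natural killer cells, averaged 1.66 ± 1.26 CPM in BPA ewes and 3.33 ± 1.54 CPM in controls (SD, n = 4 each; log2 -1.04 ± 0.68, edgeR adjusted p = 0.523). CD5, a surface receptor that dampens antigen receptor signals, averaged 1.69 ± 1.3 CPM in BPA ewes and 2.71 ± 2.18 CPM in controls (log2 -0.74 ± 0.68, edgeR adjusted p = 0.667). Without controls 902 and 924 the estimate was 0.18 for CD5, the reverse of the full comparison, -0.28 for CD3E (edgeR adjusted p = 0.891) and -0.50 for CD2 (0.858). Over 13 alternatives CD3E ran from -1.35 to -0.28, CD2 from -1.42 to -0.50 and CD5 from -1.31 to 0.18.

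CD79B, MS4A1 and LTB did not pass the filter on low counts in subcutaneous fat. CD79B, a signalling chain of the B cell receptor, had 11 counts in the 4 BPA libraries together and 43 in the 4 controls, or 0.206, 0.678, 1.47 and 0.45 CPM in BPA libraries 918, 922, 941 and 977 against 3.28, 2.24, 1.1 and 0.41 CPM in controls 902, 924, 928 and 931. MS4A1, the B cell surface protein CD20, had 4 counts in BPA libraries and 22 in controls, and LTB, the membrane-bound subunit of the cytokine lymphotoxin, 26 and 55. Their groups overlapped. In the fit with no filter the log2 fold changes were -1.38 for CD79B, -1.89 for MS4A1 and -0.58 for LTB (edgeR adjusted p = 0.497, 0.417 and 0.713). None of the 6 tested genes separated the groups, which 7.45% of the genes tested over the whole table did.

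**Figure D2:**
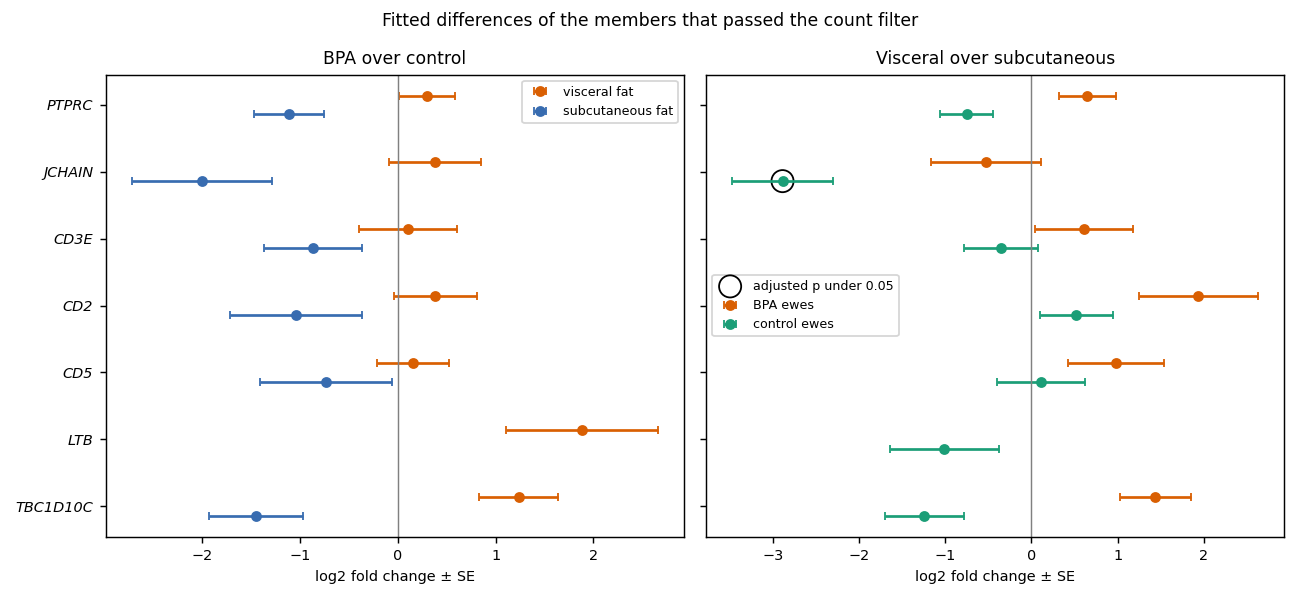
Fitted log2 fold change (horizontal axis) ± SE of the genes that passed the count filter, for BPA over control in each depot (left) and visceral over subcutaneous in each treatment (right). JCHAIN in control ewes, at -2.89, is the value ringed as past an adjusted p of 0.05, and in the left panel visceral estimates lie above 0 and subcutaneous ones below it.

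Most other genes of the same cells that were tested also had lower estimates, in lists chosen with earlier results of these data known. Of the 19 T cell receptor, coreceptor and signalling genes, 6 passed the filter, all 6 with lower estimates, a median log2 fold change of -0.73 and 0 called. Among these CD3G, another chain of the receptor complex, had -1.75 ± 0.66 (edgeR adjusted p = 0.277) and -1.38 without controls 902 and 924. Of 10 T cell transcription factors and homing genes, 8 were tested, 6 with lower estimates, with a median of -0.97 and 0 called. TCF7 and FOXP3, the factor of regulatory T cells, ran the other way (0.43 ± 0.29 and 0.56 ± 0.42, edgeR adjusted p = 0.541 and 0.583). IL7R, the interleukin receptor that maintains resting T cells, averaged 5.23 ± 2.25 CPM in BPA ewes and 12.3 ± 1.47 CPM in controls (log2 -1.23 ± 0.31, edgeR adjusted p = 0.11). Its ranges of 2.71 to 8.09 and 10.5 to 13.6 CPM did not overlap, as in 7.45% of all genes tested. How many list genes did so was not counted. The value of IL7R was -1.08 without controls 902 and 924 (adjusted p = 0.348).

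Of 18 B cell genes 7 were tested, all 7 with lower estimates (median -0.97, 0 called), and of 12 plasma cell genes 7, of which 6 were lower (median -0.56, 0 called). The B cell kinase BLK had a log2 fold change of -1.69 ± 0.54 (edgeR adjusted p = 0.206), and FKBP11, a chaperone of secretory cells, -0.89 ± 0.30 (0.228). FCMR, the receptor for IgM on lymphocytes, averaged 3.85 ± 1.46 CPM in BPA ewes and 12.6 ± 4.57 CPM in controls, with ranges of 2.03 to 5.62 and 7.38 to 17.4 CPM (log2 -1.71 ± 0.36, edgeR adjusted p = 0.0622). MZB1, a chaperone of antibody assembly, did not pass the filter, and had 0.206, 0, 0 and 1.35 CPM in BPA libraries 918, 922, 941 and 977, against 6.08, 3.62, 0.471 and 1.23 CPM in controls 902, 924, 928 and 931. Of 22 other pan-leukocyte genes 19 were tested, 17 with lower estimates (median -1.10, 0 called). The tetraspanin CD53 came closest to the threshold, at 3.12 ± 1.47 CPM in BPA ewes and 9.46 ± 1.52 CPM in controls (log2 -1.61 ± 0.33, edgeR adjusted p = 0.0576). Without controls 902 and 924 the log2 values were -1.15 for BLK, -0.51 for FKBP11, -1.20 for FCMR and -1.48 for CD53 (edgeR adjusted p = 0.424, 0.607, 0.319 and 0.264). The list medians were then -0.23 for T cell receptor and signalling genes, -0.56 for T cell factors, -0.20 for B cell, -0.13 for plasma cell and -0.33 for pan-leukocyte genes, against 0.008 over all genes tested.

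Among markers of other cells, those of macrophages, mast cells and vessels also had mostly lower estimates. All 15 macrophage and monocyte genes tested had lower estimates (median -0.96), and C5AR1, the receptor for complement C5a, and the adaptor TYROBP fell by 1.33 and 1.75 on the log2 scale (edgeR adjusted p = 0.00868 and 0.0447). Of 8 omissions of 1 library, C5AR1 was called in 8 and TYROBP in 1, that without control 928. Without controls 902 and 924 together neither was called (adjusted p = 0.126 and 0.264). The summed level of the 16 macrophage genes in the table was 401 to 634 CPM in subcutaneous BPA and 743 to 1060.8 CPM in subcutaneous controls, with no overlap. Their median was -0.81 without controls 902 and 924. The 12 neutrophil, mast and dendritic cell genes summed to 37.5 to 58.2 CPM in BPA and 78.5 to 120 CPM in controls, again with no overlap, and all 4 of them that were tested had lower estimates. Single genes separated these groups in 7.45% of those tested, and for sums of genes no such share was counted. The mast cell genes HDC and KIT had -2.21 ± 0.64 and -1.38 ± 0.28 (edgeR adjusted p = 0.163 and 0.0564). Of 12 endothelial genes 11 had lower estimates (median -0.25), with LYVE1, a receptor of lymphatic vessels, at -1.01 ± 0.24 (0.102). Of 12 adipocyte genes 11 had higher estimates (median 0.25, 0 called, with 3 at an unadjusted p under 0.05 in edgeR). Without controls 902 and 924, 7 of the 12 were higher (median 0.015). Summed adipocyte genes were 17308.7 to 29289.2 CPM in BPA and 13866.8 to 28127.7 CPM in controls. What part any of these cells had in the values of the lymphocyte genes was not tested.

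**Figure D3:**
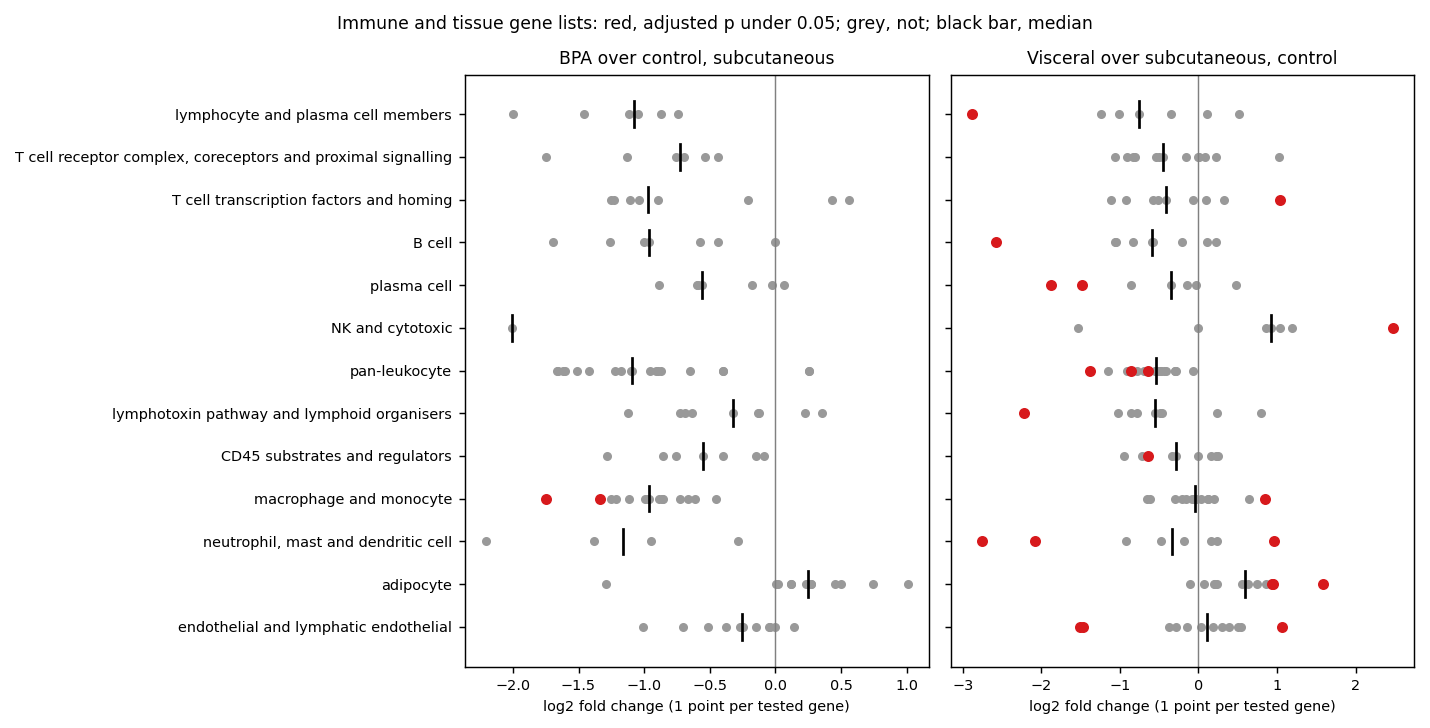
Log2 fold change (horizontal axis) of each tested gene, 1 point per gene, for the 9-gene set and 12 other lists, with list medians as black bars and genes past an adjusted p of 0.05 in red, for BPA over control in subcutaneous fat (left) and visceral over subcutaneous fat in control ewes (right). On the left only 2 macrophage genes are red, at -1.33 and -1.75, and on the right JCHAIN at -2.89 is red among the 9.

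In visceral fat the same comparison separated BPA from control ewes for TBC1D10C and for none of the other tested genes of the set, and no gene of the table passed the test. Of 14774 genes, 0 (0%) were called by edgeR and 5 (0.0338%) by DESeq2, and 1103 had an unadjusted p under 0.05. Of the 9 genes 7 were tested and 0 were called by edgeR or DESeq2, with 2 at an unadjusted p under 0.05, as were 7.47% of all genes. Their median log2 fold change was 0.38, against 0.00188 over all genes tested, and -0.06 without BPA 977.

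TBC1D10C had 3.91, 5.82, 10.7 and 5.43 CPM in visceral BPA libraries 910, 918, 977 and 984, against 2.23, 1.71, 3.28 and 3.67 CPM in visceral controls 902, 908, 924 and 928. Each BPA library lay above each control, and BPA 910 exceeded control 928 by little. A gap between the groups was found in 1 of the 7 tested genes of the set and in 4.02% of all genes tested. The log2 fold change was 1.23 ± 0.40 (SE, n = 4 against 4; edgeR adjusted p = 0.658) and 0.88 without BPA 977 (adjusted p = 0.989).

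LTB had 1.68, 2.05, 12.0 and 1.06 CPM in visceral BPA libraries 910, 918, 977 and 984, against 1.25, 1.61, 1.12 and 0.489 CPM in visceral controls 902, 908, 924 and 928. BPA 977 stood alone, BPA 910 and 918 lay just above the highest control, and BPA 984 lay within the controls. The log2 fold change of 1.88 ± 0.78 (edgeR adjusted p = 0.658) was 0.49 without BPA 977. LTA, the subunit with which LTB forms its complex, had 0 or 1 count in each of the 16 libraries, and the receptor LTBR had 73.3 ± 11.0 CPM in visceral BPA and 67.0 ± 5.2 CPM in visceral controls (SD, n = 4 each).

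PTPRC had 82.0, 60.6, 163 and 71.9 CPM in visceral BPA libraries 910, 918, 977 and 984, against 67.7, 68.4, 80.3 and 91.2 CPM in visceral controls 902, 908, 924 and 928. JCHAIN had 12.5, 6.73, 33.6 and 7.69 CPM in the same BPA libraries, against 12.4, 9.95, 8.47 and 15.4 CPM in the controls. In both genes BPA 977 was the highest of the 8 libraries, while BPA 918 was the lowest. The log2 fold changes were 0.30 ± 0.28 for PTPRC and 0.38 ± 0.47 for JCHAIN (edgeR adjusted p = 0.768 and 0.813), and without BPA 977 they were -0.11 and -0.38, of opposite sign.

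Among T cell genes, CD2 had 5.47, 3.42, 11.3 and 5.05 CPM in visceral BPA libraries 910, 918, 977 and 984, against 2.68, 7.01, 5.01 and 4.56 CPM in visceral controls 902, 908, 924 and 928 (log2 0.38 ± 0.42, edgeR adjusted p = 0.795). CD3E averaged 3.96 ± 2.18 CPM in BPA ewes and 3.66 ± 1.6 CPM in controls, and CD5 3.29 ± 1.03 CPM in BPA ewes and 2.94 ± 0.57 CPM in controls. Their differences were smaller than the SD of either group (edgeR adjusted p = 0.953 and 0.904). The B cell genes did not pass the filter here either. CD79B had 7 counts in the BPA libraries together and 22 in controls, and MS4A1 18 and 21, with 15 of the 18 in BPA 977. In the fit with no filter their log2 fold changes were -1.44 and 0.40 (edgeR adjusted p = 0.707 and 0.924).

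The other immune lists held 0 called genes in visceral fat. Of 13 T cell receptor and signalling genes tested, 9 had higher estimates (median 0.47), among them the kinase LCK at 6.88 ± 4.48 CPM in BPA ewes and 3.35 ± 1.13 CPM in controls (log2 1.03 ± 0.46, edgeR adjusted p = 0.658), and 0.47 without BPA 977. Of 9 B cell genes 8 were higher (median 0.20), of 7 plasma cell genes 6 (median 0.36) and of 19 pan-leukocyte genes 16 (median 0.30). Without BPA 977 these medians were 0.06 for T cell receptor and signalling genes, -0.10 for B cell, 0.23 for plasma cell and -0.01 for pan-leukocyte genes. Macrophage genes had a median of -0.18, with 4 of 15 higher. Their summed level was 683 to 1339.6 CPM in visceral BPA and 969 to 1148.9 CPM in visceral controls, and overlapped.

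The difference between both BPA effects was tested on all 16 libraries as the visceral effect minus the subcutaneous effect. All 7 genes tested had a positive difference, of which 0 were called by edgeR or DESeq2 and 4 had an unadjusted p under 0.05. Over all 14793 genes edgeR called 0 (0%), with 917 (6.2%) at an unadjusted p under 0.05, while DESeq2 called 11 (0.0744%). The largest difference in the set was that of TBC1D10C, with 2.69 ± 0.64 on the log2 scale (unadjusted p = 0.000601, edgeR adjusted p = 0.649), the gene ranked 12 of 14793 by p. It ranged from 1.84 to 2.91 over 22 alternative settings, with adjusted p from 0.0616 to 1.

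LTB followed with 2.44 ± 1.08 (edgeR adjusted p = 0.771), JCHAIN with 2.37 ± 0.94 (0.738), and CD2 with 1.42 ± 0.85 (0.892). PTPRC had 1.41 ± 0.49 (edgeR adjusted p = 0.718), CD3E 0.97 ± 0.74 (0.965) and CD5 0.88 ± 0.79 (0.982). Without subcutaneous controls 902 and 924 the difference was 0.65 for both JCHAIN and PTPRC, and without visceral BPA 977 it was 1.64 for JCHAIN, 1.01 for PTPRC and 1.07 for LTB. The median over the 7 genes was 1.42, against 0.02 over all genes tested. Each of these values uses the libraries of the preceding comparisons, and none is separate evidence.

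Between the depots of control ewes, JCHAIN was 7.39-fold lower in visceral than in subcutaneous fat, and it was the 1 gene of the 9 that passed the test. Of 14456 genes tested, edgeR called 1928 (13.3%), 1037 higher and 891 lower in visceral fat. From the set 7 genes were tested, 5 with lower estimates, and their median log2 fold change was -0.75, against -0.01 over all genes tested. This comparison shares its controls with both comparisons of BPA, so the values are set side by side only.

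JCHAIN had 12.4, 9.95, 8.47 and 15.4 CPM in visceral controls 902, 908, 924 and 928, against 182, 111, 22.8 and 29.5 CPM in subcutaneous controls 902, 924, 928 and 931. The highest visceral library lay below the lowest subcutaneous one, and among subcutaneous libraries 902 and 924 were far above 928 and 931. A gap of this kind was found in 1 of the 7 tested genes and in 19.9% of all genes tested. The log2 fold change was -2.89 ± 0.58 (SE, n = 4 against 4; edgeR adjusted p = 0.0104). JCHAIN was called in each of 15 alternative settings, with log2 values from -3.19 to -1.18 and adjusted p from 0.000522 to 0.033. The smallest difference came without subcutaneous controls 902 and 924 together, when it was -1.18 (adjusted p = 0.0292).

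Within the 3 control animals with both depots, JCHAIN was lower in visceral fat each time, but by very unequal amounts. The level in subcutaneous fat was 14.6 times that in visceral fat in ewe 902, 13.1 times in ewe 924 and 1.48 times in ewe 928. With the animal as a replicate block the log2 fold change was -2.80 (edgeR adjusted p = 0.0063).

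**Figure D4:**
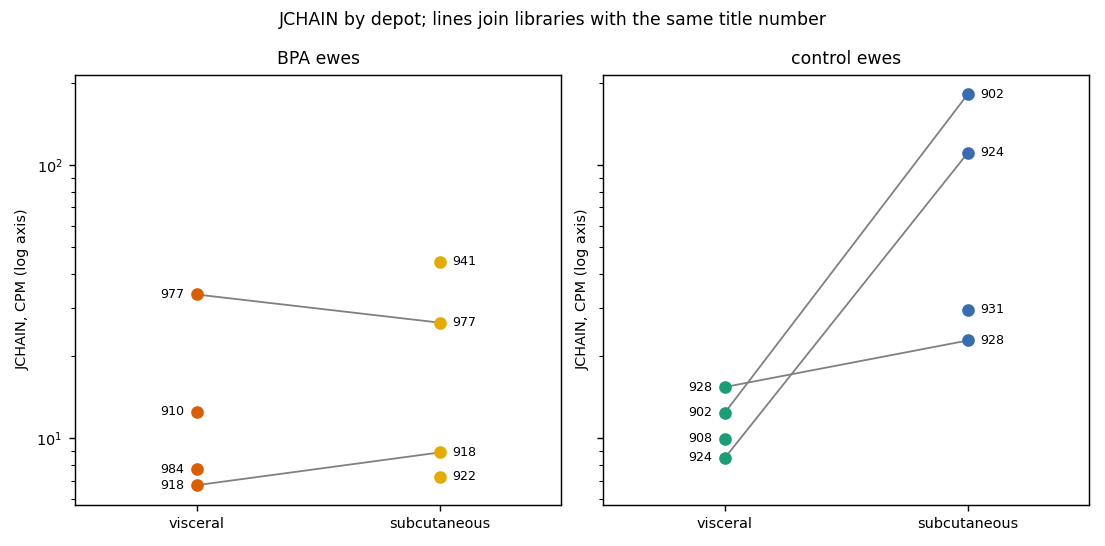
JCHAIN level in CPM (vertical log axis) in visceral and subcutaneous fat of BPA ewes (left) and control ewes (right), with lines that join libraries of the same number. The 4 visceral controls, at 8.47 to 15.4 CPM, lie below the 4 subcutaneous controls, at 22.8 to 182 CPM, while in BPA ewes the depots overlap.

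The remaining genes did not pass in control ewes. PTPRC averaged 76.9 ± 11.1 CPM in visceral and 130 ± 66.8 CPM in subcutaneous fat (log2 -0.75 ± 0.30, edgeR adjusted p = 0.126). It was called without subcutaneous control 928 (-0.95, adjusted p = 0.0451), and its value was -0.01 without 902 and 924. TBC1D10C averaged 2.72 ± 0.909 CPM in visceral and 6.49 ± 4.44 CPM in subcutaneous fat (log2 -1.24 ± 0.46, edgeR adjusted p = 0.098), with a call by DESeq2 (adjusted p = 0.0485), which called 19.2% of all genes, and -0.41 without 902 and 924.

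LTB had 1.25, 1.61, 1.12 and 0.489 CPM in visceral controls 902, 908, 924 and 928, against 4.06, 2.76, 1.88 and 0.205 CPM in subcutaneous controls 902, 924, 928 and 931. Subcutaneous control 931 was the lowest of the 8, and the log2 fold change was -1.01 ± 0.63 (edgeR adjusted p = 0.306). In the 3 animals with both depots the level of LTB in subcutaneous fat was 3.25, 2.46 and 3.85 times the visceral level. With the animal as a replicate block LTB was called lower in visceral fat (log2 -1.60, edgeR adjusted p = 0.046), and without 902 and 924 its value was 0.02 (adjusted p = 0.993).

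No T cell gene passed the test between the depots of control ewes. CD3E averaged 3.66 ± 1.6 CPM in visceral and 4.69 ± 1.95 CPM in subcutaneous fat (log2 -0.35 ± 0.43, edgeR adjusted p = 0.625), CD2 4.82 ± 1.78 and 3.33 ± 1.54 CPM (0.52 ± 0.42, 0.436) and CD5 2.94 ± 0.57 and 2.71 ± 2.18 CPM (0.11 ± 0.51, 0.911). Without subcutaneous controls 902 and 924 the log2 value of CD3E was 0.23, of opposite sign (edgeR adjusted p = 0.84). Over 14 alternatives CD2 ran from -0.004 to 1.04 and CD5 from -0.19 to 1.01. CD79B had 22 counts in visceral controls, of 47.8 M in all, and 43 in subcutaneous controls, of 22.4 M in all, and averaged 0.479 ± 0.142 against 1.76 ± 1.26 CPM. It did not pass the filter, and in the fit with no filter it had a log2 fold change of -1.83 (edgeR adjusted p = 0.104). Without subcutaneous control 931 it passed the filter and was called (adjusted p = 0.0328). MS4A1 averaged 0.448 ± 0.433 CPM in visceral and 0.924 ± 0.616 CPM in subcutaneous fat (log2 -0.99 in the fit with no filter, edgeR adjusted p = 0.517).

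A few other genes known from B cells, plasma cells and IgM handling were lower in visceral fat of controls, where 13.3% of all genes were called. IRF4 and PRDM1, transcription factors that direct plasma cell formation and are active in other cells too, fell by 1.87 ± 0.41 and 1.48 ± 0.37 on the log2 scale (edgeR adjusted p = 0.0143 and 0.0249). IRF4 averaged 6.06 ± 1.1 CPM in visceral and 22.3 ± 13.6 CPM in subcutaneous fat, and PRDM1 6.98 ± 2.02 and 19.5 ± 9.91 CPM. These were 2 of 7 plasma cell genes tested, whose median was -0.34. BLK was the 1 of 9 B cell genes called, a share of the list no higher than that of all genes, at 1.13 ± 0.404 CPM in visceral and 6.86 ± 5.19 CPM in subcutaneous fat (log2 -2.58 ± 0.52, edgeR adjusted p = 0.0108). FCMR had 2.03 ± 1.54 CPM in visceral and 12.6 ± 4.57 CPM in subcutaneous fat (log2 -2.61 ± 0.47, edgeR adjusted p = 0.00633). BLK was called in every alternative run for it, and IRF4 and FCMR in each omission of 1 library. The call of PRDM1 was lost without visceral control 902, 924 or 928 or subcutaneous control 902 or 924. Without subcutaneous controls 902 and 924 together, the log2 values were -0.84 for IRF4 (adjusted p = 0.126), -0.69 for PRDM1 (0.25), -2.07 for BLK (0.036) and -2.12 for FCMR (0.0528).

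The B cell list had 7 of 9 lower estimates (median -0.59), and T cell lists had mostly lower estimates as well. Of 13 T cell receptor and signalling genes 9 were lower and 0 were called (median -0.45, with 1 at an unadjusted p under 0.05). Of 9 T cell factors and homing genes 6 were lower (median -0.41), and of 7 natural killer and cytotoxic genes 2 (median 0.93). No difference between lists was tested. The 1 gene called in each of the last 2 lists was higher. TCF7, a transcription factor of T cells and of Wnt signalling, rose in visceral fat (log2 1.04 ± 0.28, edgeR adjusted p = 0.0339), as did TBX21, a transcription factor of natural killer and helper T cells, at 4.44 ± 1.53 CPM in visceral and 0.763 ± 0.578 CPM in subcutaneous fat (2.48 ± 0.57, 0.0181). The call of TBX21 was lost without visceral control 928, and that of TCF7 without visceral control 902, 908 or 928 or subcutaneous control 924, 928 or 931. Of 19 pan-leukocyte genes all had lower estimates (median -0.54), and LSP1, PTPN6 and IKZF1 passed the test (edgeR adjusted p = 0.0121, 0.042 and 0.0447). PTPN6 and IKZF1 kept their calls in 2 of 8 omissions, those of subcutaneous controls 928 and 931, and had -0.39 and -0.29 on the log2 scale without 902 and 924. The list medians without them were 0.06 for pan-leukocyte genes, 0.69 for T cell receptor and signalling genes, 0.07 for T cell factors, -0.10 for B cell, -0.32 for plasma cell and 1.05 for cytotoxic genes. Of the lymphotoxin and lymphoid organiser genes, CCL21, a chemokine of lymphatic vessels and lymphoid tissue, had 3.39 ± 1.57 CPM in visceral and 16.1 ± 9.54 CPM in subcutaneous fat (log2 -2.22 ± 0.43, edgeR adjusted p = 0.00837), and was called in each alternative.

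Markers of other cells differed between the depots of control ewes as well. The mast cell gene KIT and the lymphatic endothelial genes PROX1 and FLT4 fell in visceral fat by 2.08, 1.51 and 1.46 on the log2 scale (edgeR adjusted p = 0.000967, 0.0149 and 0.0151). PPARG, the regulator of fat cell formation, and WT1, a mesothelial transcription factor, rose there by 0.94 and 8.32 (edgeR adjusted p = 0.00568 and 8.3e-06). These 5 calls stood in each of 15 alternatives. Macrophage genes had a median of -0.04, and their summed level was 969 to 1148.9 CPM in visceral and 743 to 1060.8 CPM in subcutaneous controls. The part of these cells in the level of JCHAIN was not tested.

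In BPA ewes the depots overlapped in JCHAIN, with 12.5, 6.73, 33.6 and 7.69 CPM in visceral libraries 910, 918, 977 and 984, against 8.87, 7.23, 44.3 and 26.5 CPM in subcutaneous libraries 918, 922, 941 and 977. The log2 fold change of visceral over subcutaneous fat was -0.53 ± 0.63 (SE, n = 4 against 4; edgeR adjusted p = 0.636), and it was 0.08 without subcutaneous BPA 941 and -1.27 without visceral BPA 977. Of 13782 genes tested edgeR called 1250 (9.07%). From the set 6 genes were tested, 5 with higher estimates in visceral fat, and 0 were called by edgeR, with 2 at an unadjusted p under 0.05, as were 27% of all genes, and 2 called by DESeq2, which called 15.9% of all genes. The median was 0.82, against 0.02 over all genes tested.

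These 2 genes were CD2 and TBC1D10C. CD2 had 5.47, 3.42, 11.3 and 5.05 CPM in visceral BPA libraries 910, 918, 977 and 984, against 1.44, 0, 2.94 and 2.25 CPM in subcutaneous BPA libraries 918, 922, 941 and 977. TBC1D10C had 3.91, 5.82, 10.7 and 5.43 CPM in the visceral libraries, against 1.86, 1.81, 2.64 and 3.15 CPM in the subcutaneous ones. In both genes every visceral library lay above every subcutaneous one, as in 18.6% of all genes tested. The log2 fold changes were 1.94 ± 0.69 for CD2 (edgeR adjusted p = 0.102, DESeq2 0.0272) and 1.44 ± 0.41 for TBC1D10C (edgeR adjusted p = 0.0532, DESeq2 0.0183). In the edgeR fit of all 16 libraries both passed, with adjusted p = 0.0444 and 0.044. Without visceral BPA 977 the values were 1.51 for CD2 and 1.09 for TBC1D10C.

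PTPRC averaged 94.4 ± 46.5 CPM in visceral and 60.1 ± 20.8 CPM in subcutaneous fat of BPA ewes (log2 0.65 ± 0.33, edgeR adjusted p = 0.239, and 0.25 without visceral BPA 977), CD3E 3.96 ± 2.18 and 2.62 ± 1.71 CPM (0.61 ± 0.57, 0.528) and CD5 3.29 ± 1.03 and 1.69 ± 1.3 CPM (0.98 ± 0.56, 0.283). LTB, not tested here, had 127 counts in visceral and 26 in subcutaneous libraries, of which 80 were in visceral BPA 977. In the libraries numbered 977 the visceral level was 5.93 times the subcutaneous level for LTB, 5.01 times for CD2 and 3.39 times for TBC1D10C. In those numbered 918 it was 1.66 times for LTB, 2.37 times for CD2 and 3.13 times for TBC1D10C. JCHAIN had 33.6 CPM in visceral and 26.5 CPM in subcutaneous fat of number 977, and 6.73 and 8.87 CPM in those of number 918. Over all genes the deviations from group means correlated at 0.0313 between the libraries numbered 977, neither of which was closest to the other, so these ratios rest on the title number alone.

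Of the T cell receptor and signalling genes tested in BPA ewes, CD6 and SKAP1 rose in visceral fat (log2 2.25 ± 0.63 and 1.52 ± 0.31, edgeR adjusted p = 0.0496 and 0.0161), 2 of 6 with a list median of 1.39. The call of CD6 was lost in each of the 8 omissions of 1 library, and that of SKAP1 without subcutaneous BPA 922. CD6 is a relative of CD5 on T cells, and SKAP1 an adaptor of T cell adhesion. No B cell gene was called among 8 (edgeR, with 0 at an unadjusted p under 0.05), and FCMR had -0.54 (edgeR adjusted p = 0.524). Without visceral BPA 977, where edgeR called 2206 of 13725 genes, the B cell gene POU2AF1 was called lower (-2.87, adjusted p = 0.0132). The 5 other B cell genes were higher. IRF4, PRDM1 and FCMR then had -1.03, -0.81 and -1.02 (adjusted p = 0.0519, 0.0917 and 0.138). Of 7 plasma cell genes 4 were lower and 3 higher, and the 1 called, FKBP11, was higher. Of 15 macrophage genes, all had higher estimates in visceral fat (median 0.91) and 4 rose, among them CD68, the lysosomal protein of macrophages, which was called in each of 14 alternatives. The summed level of the macrophage genes was 683 to 1339.6 CPM in visceral BPA and 401 to 634 CPM in subcutaneous BPA, with no overlap. Single genes separated these groups in 18.6% of those tested, and for sums no such share was counted. What part macrophages had in the values of the 9 genes was not tested.

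Levels relative to PTPRC in the same library describe the mix of these transcripts apart from their total. Per kilobase, JCHAIN was 0.576 ± 0.185 times PTPRC in visceral BPA, 0.602 ± 0.136 in visceral controls, 1.28 ± 0.65 in subcutaneous BPA and 2.39 ± 1.64 in subcutaneous controls (SD, n = 4 each). Its ranges were 0.427 to 0.824 and 0.421 to 0.732 in the visceral groups and 0.699 to 2.04 and 1.3 to 4.8 in the subcutaneous ones. The visceral and subcutaneous ranges overlapped in BPA ewes and not in controls. How many of all genes separate the depots of controls relative to PTPRC was not counted.

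The sum of CD3E, CD2 and CD5 relative to PTPRC was 0.446 ± 0.0734 in visceral BPA, 0.457 ± 0.109 in visceral controls, 0.291 ± 0.118 in subcutaneous BPA and 0.279 ± 0.071 in subcutaneous controls. Within a depot the means of BPA and control ewes thus lay closer together than 1 SD. TBC1D10C relative to PTPRC was 0.127 to 0.256 in visceral BPA and 0.0664 to 0.109 in visceral controls, without overlap. In subcutaneous fat the ratio was 0.0812 to 0.126 in BPA ewes and 0.102 to 0.16 in controls, with overlap. The share of all genes without overlap in such a ratio was not counted. JCHAIN relative to the sum of the T cell genes was highest in subcutaneous controls, at 3.92 to 14, next to 2.52 to 5.27 in subcutaneous BPA, 0.995 to 2.11 in visceral BPA and 0.979 to 1.74 in visceral controls. The sum of both B cell genes rests on 2 to 28 counts per library and is too small for such a ratio.

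**Figure D5:**
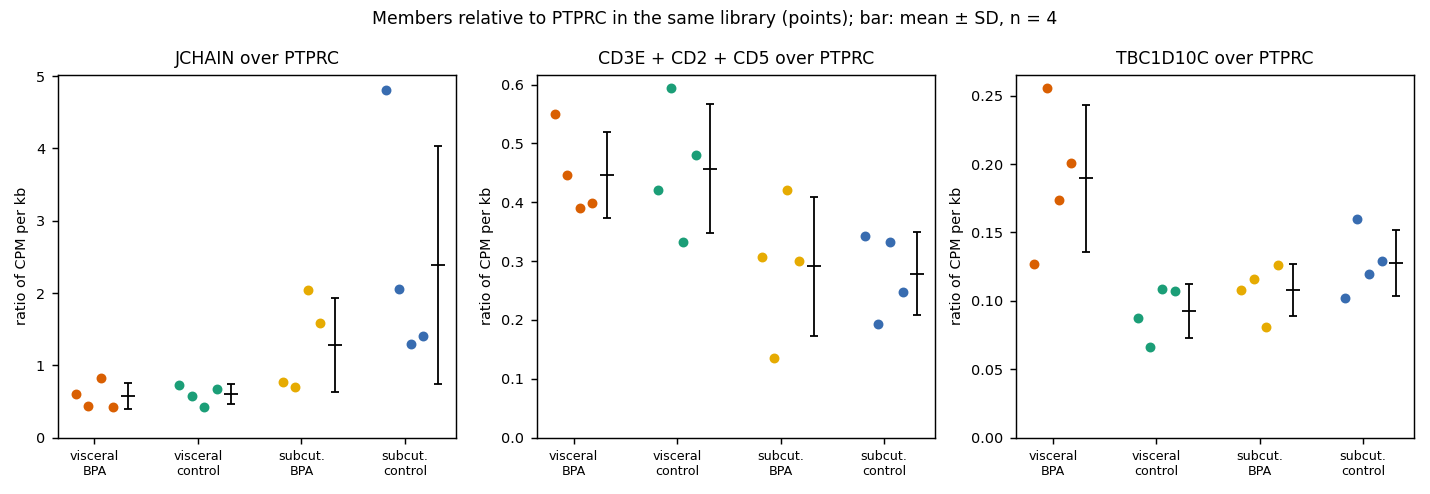
Ratio to PTPRC in the same library, in CPM per kilobase (vertical axis), of JCHAIN, of the sum of CD3E, CD2 and CD5, and of TBC1D10C, with points for libraries and bars for the mean ± SD of 4. JCHAIN relative to PTPRC lies below 1 in all 8 visceral libraries (0.421 to 0.824), and TBC1D10C relative to PTPRC is higher in all 4 visceral BPA libraries than in the 4 visceral controls. How many of all genes separate groups in such a ratio was not counted.

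Across the 16 libraries, the genes whose log2 levels ran most like those of the set were sought by Pearson's r among 12401 other genes. These had passed the filter on low counts, and genes whose symbol starts with LOC were left out. Genes that ran closer may be among those left out. The ranking is a description, since libraries of 1 animal and depot are not independent and a few libraries carry the spread. For the mean of CD3E, CD2 and CD5 the closest of the ranked genes were CD96 (r = 0.914, Spearman's rho = 0.879), RUNX3 (0.908, 0.847) and CD27 (0.893, 0.841). CD96 and CD27 are surface receptors of T cells and natural killer cells, and RUNX3 is a transcription factor of cytotoxic lymphocytes. After each group's mean was removed, r was 0.91, 0.881 and 0.922 for the same genes.

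For PTPRC they were the adaptor LCP2 (r = 0.94, rho = 0.865), the guanine nucleotide exchange factor DOCK8 (0.935, 0.694) and the adaptor SLA (0.934, 0.876), all of blood cells. For JCHAIN they were the kinase STK4 (0.889, 0.806), MCTP1 (0.881, 0.776) and RASSF5 (0.879, 0.765). For TBC1D10C they were DOK2 (0.907, 0.832), ARHGAP30 (0.892, 0.844) and SHANK1 (0.89, 0.838), and for LTB SIGIRR (0.948, 0.932), MOV10 (0.868, 0.609) and GDF11 (0.857, 0.744). For the mean of CD79B and MS4A1 they were SLC46A1 (0.876, 0.874), CILP (0.869, 0.868) and LTC4S (0.868, 0.924), in which no B cell gene appears, at a depth where the B cell genes had few counts.

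Within the set, PTPRC and JCHAIN ran together most closely once group means were removed (r = 0.914 over 16 libraries), followed by PTPRC and TBC1D10C (0.851) and JCHAIN and CD3E (0.84). CD79B and MS4A1, both of B cells, had r = -0.22 with group means removed, at their low counts and with a smaller added count in the log2 step than the other genes.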

How the data were processed

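RNA sequencing was done on ribosome-depleted RNA with a low-input kit, per the labels. Per the submitters' processing notes the tools were FastQC 0.11.5, MultiQC 0.9, STAR 2.6.0c and featureCounts of Subread 1.6.1. Genome build, annotation release and strandedness of counting were not given in the sources used here. The deposited table gives 1 count per gene and library for 28524 genes, with exon positions and a gene length in bases, per the file headers. Its name calls the counts normalized, but 0 values are other than whole and totals differ, so they were used as raw counts.

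Genes were filtered with filterByExpr (minimum count 10, minimum total 15), scaled by TMM and tested two-sided by quasi-likelihood in edgeR 4.0.16 under R 4.3.3. Benjamini-Hochberg adjustment ran over all genes tested, with calls at an adjusted p under 0.05. SEs were derived from the estimate and the F statistic. The script was tested on simulated data. Fits used the 8 libraries compared, or all 16 for the difference of effects. Log2 CPM for likeness used a prior count of 2. CD79B and MS4A1 did not pass the filter over all 16 libraries, and a smaller added count was used for them. Alternatives were DESeq2 1.42.0, its size factors, other filters, all 16 libraries in 1 fit, a threshold of 0.1, omitted libraries and the title number as a replicate block. Numbers shared by both depots were checked by the correlation of deviations from group means, which was 0.287, 0.4 and 0.332 for controls 902, 924 and 928 and 0.167 and 0.0313 for BPA 918 and 977. The controls were taken as pairs. Alternatives for list genes were added after the calls were seen. The 9 genes, the 15 other lists and the tests were chosen with earlier results of these data known. Besides the 9, the rule named, in each list, every called gene and up to 3 genes of smallest p in the subcutaneous BPA comparison and the control depot comparison, and the 3 genes most like each profile, and the text gives part of them. MZB1, LTA, LTBR, LCK, CD6, CD68, FOXP3 and POU2AF1 were named after their values were seen. List genes missing from the table, such as ZAP70, CD48 and GZMB, were not analysed here.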

Additional observations from a re-analysis of the deposited data

Results flagged for a closer look

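Of 36 sets of 4 libraries (9 genes in 4 groups), 2 held a library far from the other 3, by Dixon's test for outlying values, which chance passes in about 1 set in 20. Both concern visceral BPA 977. MS4A1 was at 2.25 CPM there, against 0 to 0.228 CPM in the other visceral BPA libraries, and LTB was at 12.0 CPM, against 1.06 to 2.05 CPM. Both genes had their highest level of all 16 libraries in it.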

How the results depend on the processing

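Of 498 values of single genes under alternative settings, 474 kept their direction and their side of the threshold, 17 changed sign with 0 of them past the threshold, and 7 passed it where the reported value had not. The count of called genes of the set stayed at 0 in every alternative for both BPA comparisons and for their difference. Between depots of control ewes it was 1, and 2 under DESeq2, under the replicate block and at a threshold of 0.1, and 1 to 2 with 1 library left out. Between depots of BPA ewes it was 0, and 2 under DESeq2, 2 in the fit of all 16 libraries and 1 at a threshold of 0.1.

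Signs changed as follows, on the log2 scale. In BPA against control in visceral fat, leaving out 1 library gave -0.149 to 0.399 for CD3E, -0.007 to 0.329 for CD5, -0.113 to 0.46 for PTPRC, -0.376 to 0.623 for JCHAIN and -0.057 to 0.615 for CD2. Between depots of control ewes the replicate block gave -0.004 for CD2 and -0.032 for CD5, and leaving out 1 library gave -0.193 to 0.785 for CD5. Without subcutaneous controls 902 and 924 together, CD3E was 0.226 and LTB 0.02 between depots of control ewes, CD5 was 0.176 in BPA against control in subcutaneous fat, and CD5 was -0.035 in the difference of BPA effects. Between depots of BPA ewes JCHAIN was 0.016 with the replicate block and -1.267 to 0.081 with 1 library left out. The causes were not tested. The replicate block changed no other call among the 9 genes.

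Over all genes, BPA against control in subcutaneous fat called 96, and 464 by DESeq2, 173 with no filter, 54 with at least 50 counts in 4 libraries, 46 in the fit of all 16 libraries, 216 at a threshold of 0.1 and 0 without 902 and 924. The depots of control ewes gave 1928, with 3062 at 0.1 and 1138 without 902 and 924, and those of BPA ewes 1250, with 2197 by DESeq2, 2408 in the fit of all 16 and 2312 at 0.1. The difference of effects gave 0, with 11 by DESeq2 and 19 with the replicate block. Depth limits CD79B, MS4A1 and, in subcutaneous fat, LTB.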
